A study of Mus musculus with 6 samples.

Results

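FXR binding at 39 PPAR-alpha and fatty acid oxidation genes was examined in mouse liver with and without hepatocyte BCL6. The genes were the nuclear receptor gene Ppara and 38 genes that act in fatty acid uptake, the carnitine shuttle, mitochondrial and peroxisomal oxidation, omega-hydroxylation, acyl-CoA hydrolysis, ketone body metabolism and lipid droplets. A peak counted for a gene when the authors' peak table named that gene as the nearest one. Of the 39 genes, 32 had a peak in at least 1 of the tables, out of 9654 genes named in them.

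FXR chromatin immunoprecipitation sequencing (ChIP-seq) was done on livers of C57BL/6 males of 2 genotypes. Bcl6fl/fl mice carried floxed Bcl6 alleles without Cre and served as control, written WT here, so their Bcl6 gene was floxed and not unmodified. Bcl6LKO mice, written LKO, carried the same floxed alleles and Albumin-Cre, which acts in hepatocytes, so the other cells of the liver kept Bcl6. From each genotype came 2 ChIP libraries, alongside 1 input of chromatin that was not immunoprecipitated. No label gave an age, and feeding was stated for the study as a whole as ad libitum or a short fast. Whole liver was used, so the share of cells with binding and the binding per cell cannot be told apart, and with no expression in these files the tissue label could not be checked against liver markers.

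PPAR-alpha is a nuclear receptor activated by fatty acids. With RXR it binds direct repeats of a hexamer with a 1-base spacer (DR1) and drives the genes of fatty acid oxidation, above all in fasting. FXR, the bile acid receptor, also pairs with RXR and prefers the same hexamer in inverted orientation, again 1 base apart (IR1). BCL6 is a transcriptional repressor that acts on lipid genes in liver.

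The 4 ChIP libraries held between 2883717 and 22637613 tags, the lowest being WT replicate 2, and peaks were called by the authors on the pooled replicates of a genotype. Peak counts therefore had no replicate spread, and the deeper WT replicate 1, with 19022618 tags, supplied most of the pooled WT tags. The median peak of the 39 genes held an estimated 42.7 tags in WT replicate 1 and 9.7 in WT replicate 2, against 33.0 and 35.3 in the LKO replicates. The inputs held 6964271 tags in WT and 6935001 in LKO, so an input value at a single peak rests on few tags. In the deposited log2 values, WT replicate 2 was above WT replicate 1 at 73 of the 89 WT peaks of these genes. LKO replicate 2 was above LKO replicate 1 at 16 of the 45 LKO peaks. These offsets ran through the whole tables. The median of replicate 2 minus replicate 1 was 0.56 for these genes and 0.57 for all WT peaks, and -0.13 and -0.17 in LKO. No label said that replicates came from separate mice. Each table had its own normalization, with no common scale, and no test was run between genotypes. An exact permutation test of 2 libraries against 2 could in any case give no p-value under 0.333. Differences below are descriptions beside the spread of the libraries.

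The sequences that follow are the stretches of DNA under the peaks on which the results turn, from the GRCm38.p6 assembly, plus strand, 5′ to 3′. Capitals mark a match to DR1 or IR1, built from the half-site AGGTCA, allowing 2 mismatches over the 12 scored bases, no farther than 100 bp from the peak centre. Acot4 carried the strongest shared peak that was relatively lower in LKO (chr12:84042418-84042628, intron). Cpt1a carried the strongest peak of the carnitine shuttle (chr19:3332983-3333193, intron). Acaa1b carried the strongest peak of the peroxisomal genes, shown upstream of the annotated gene (chr9:119157094-119157290). Neither the Acot4 nor the Cpt1a sequence held a match to either motif, and the Acaa1b promoter held an IR1 with 2 mismatches.
Acot4: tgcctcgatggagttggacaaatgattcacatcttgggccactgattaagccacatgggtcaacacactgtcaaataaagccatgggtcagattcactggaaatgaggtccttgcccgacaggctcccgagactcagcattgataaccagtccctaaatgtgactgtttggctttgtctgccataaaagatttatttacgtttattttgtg
Cpt1a: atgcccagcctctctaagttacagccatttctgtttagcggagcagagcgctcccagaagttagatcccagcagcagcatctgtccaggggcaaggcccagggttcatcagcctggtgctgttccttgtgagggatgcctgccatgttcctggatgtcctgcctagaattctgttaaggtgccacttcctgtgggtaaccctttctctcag
Acaa1b: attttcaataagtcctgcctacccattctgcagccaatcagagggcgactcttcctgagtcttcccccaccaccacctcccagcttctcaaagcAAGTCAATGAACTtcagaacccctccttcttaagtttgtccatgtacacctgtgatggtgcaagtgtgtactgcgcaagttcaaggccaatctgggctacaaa

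The promoters of Cyp4a12a (chr4:115298868-115299045, cut at the annotated gene start) and Cyp4a12b (chr4:115411412-115411622) carried the strongest WT peaks of the omega-hydroxylases and no LKO peak. They are shown because the whole peaks were near copies, identical at 195 of 201 aligned positions (97.0%), and reads with no unique place were not kept by the authors. The peak strength of either copy rests on reads that cross a difference between them.
Cyp4a12a: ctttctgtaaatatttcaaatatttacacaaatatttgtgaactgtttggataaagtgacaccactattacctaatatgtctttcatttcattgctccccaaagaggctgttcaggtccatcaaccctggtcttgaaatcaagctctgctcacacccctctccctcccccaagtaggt
Cyp4a12b: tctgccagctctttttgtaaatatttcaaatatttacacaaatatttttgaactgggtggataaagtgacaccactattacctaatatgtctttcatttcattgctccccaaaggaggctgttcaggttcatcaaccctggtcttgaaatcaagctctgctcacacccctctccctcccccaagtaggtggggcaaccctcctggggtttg

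Further sites are shown for their closeness to a motif, read 5′ to 3′ on the strand of the match, with 8 bases on each side in lower case. The exact DR1 lay 3′ of Acaa1b, in an intron of another gene (chr9:119145293-119145305, minus strand). The sites in the first part of Hadh (chr3:131271371-131271383, plus strand) and at the promoter of Acadvl (chr11:70015348-70015360, minus strand) each had 1 mismatch to DR1. The site under the Plin5 promoter peak (chr17:56117238-56117250, plus strand) had 2 mismatches to DR1. The site upstream of Vnn1 (chr10:23894347-23894359, plus strand) had 1 mismatch to IR1.
Acaa1b DR1: gcaccgacAGGTCAGAGGTCAcctttggg
Hadh DR1: cgggcactGGGTCAAAGGTCAaagtttcc
Acadvl DR1: aagagaagAGGTCAGTGGTCAagacttcg
Plin5 DR1: gcacgtggAGCTCCGAGGTCAccctcagc
Vnn1 IR1: ccttggctAGGTGATTGACCTtcccacgc

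Of the 39 genes, 32 had a peak (82.1%, 95% Wilson interval 67.3 to 91.0), while 36.8% of 21900 protein-coding genes of the annotation did. The annotation counts genes whether or not they are expressed in liver, and the 39 were chosen with earlier results of these data known. The part of either in this difference was not tested. Other lipid lists had peaks at 96.2% of 26 fatty acid and triglyceride synthesis genes, 16 of 16 bile acid genes and 77.4% of a wider list of 93 genes of fatty acid and peroxisome metabolism. A WT peak was named for 31 genes and an LKO peak for 22. Among the 32 genes with a peak, 96.9% had a WT peak against 93.5% of all genes in the tables, and 68.8% had an LKO peak against 71.2%. An overlapping pair of WT and LKO peaks, by at least 1 bp, was found for 18 genes, 56.2% of the 32 against 61.3% of all genes. The shares within the tables thus lay close to those of genes at large. The 7 genes without a peak were Slc25a20, which carries acylcarnitines across the inner mitochondrial membrane, the acyl-CoA dehydrogenases Acads and Acadsb, the dienoyl-CoA isomerase Ech1, the electron carrier Etfdh, the peroxisome division factor Pex11a and the thioesterase Acot2. Of these, Acads had a shared peak within 10 kb of its body that the tables named for Rpl37rt, and Ech1 and Acot2 each had a WT peak there that was named for a neighbour.

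In peaks, the 39 genes held 89 of 20040 WT peaks and 45 of 12495 LKO peaks. Of their WT peaks, 35 overlapped an LKO peak (39.3%, interval 29.8 to 49.7, against 49.5% of all WT peaks). The same 35 pairs made up 77.8% of their LKO peaks (interval 63.7 to 87.5, against 79.4% of all). Genes with a peak held 2.87 WT peaks each, against 2.22 over all genes, and 2.05 LKO peaks against 1.82. Other lipid lists were denser, with 3.13 WT and 2.09 LKO peaks per gene in the wider list, 3.55 and 2.50 for fatty acid and triglyceride synthesis and 3.50 and 2.36 for bile acid genes. The peaks of the 39 genes also lay nearer to the transcription start site (TSS) than peaks at large. The median distance was 5325 bp in WT and 3454 bp in LKO, against 13907 bp and 14093 bp over all peaks. The other lipid lists were nearer too. Their WT and LKO medians were 7717 and 5870 bp (wider list), 8897 and 7498 bp (synthesis) and 10249 and 9148 bp (bile acid). Promoters held 19.1% of the WT peaks (interval 12.3 to 28.5) against 11.4% of all, and 9 of the 45 LKO peaks (interval 10.9% to 33.8%) against 11.3%.

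**Figure D1:**
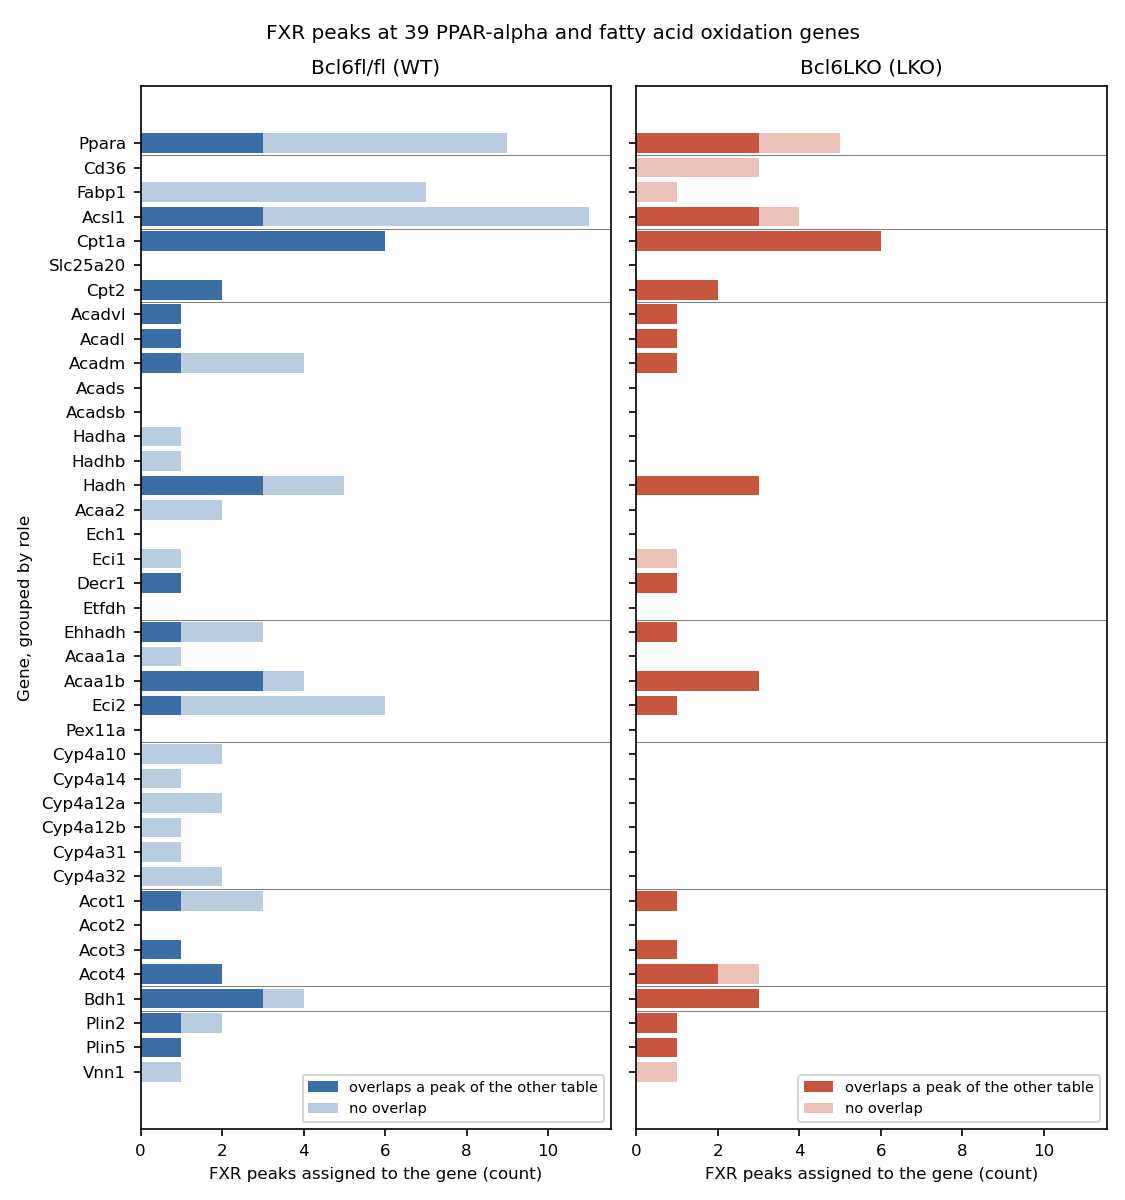
Number of FXR peaks assigned to each of the 39 genes in WT (left) and LKO (right), with the genes grouped by role. Dark bars count peaks that overlap a peak of the other genotype and pale bars those that do not; all 6 peaks of Cpt1a are paired, while the 6 Cyp4a genes have WT peaks only.

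Ppara itself was among the most densely bound members, with 9 WT and 5 LKO peaks, of which 3 were paired. The strongest pair lay 3537 bp upstream of the TSS (chr15:85731922-85732132). Levels are given on a log2 scale after subtracting, in each library, its median over all shared peaks, so that 0 is a typical shared peak. The upstream Ppara pair stood at 1.08 and 1.20 in the WT libraries and at 1.20 and 0.93 in the LKO libraries. The genotypes overlapped, with a difference of -0.075 beside a pooled SD of 0.15. The pair in an intron 11173 bp downstream of the TSS (chr15:85746844-85747054) stood at 1.20 and 0.87 in WT and at 1.38 and 1.09 in LKO, again overlapping. The remaining pair, 35653 bp downstream, was weaker, at -0.63 and -0.97 in WT and at -0.52 and -0.85 in LKO.

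The peak of the Ppara promoter, centred 135 bp upstream of the TSS, was called in WT only. It was stronger than 93.3% of WT peaks, at 1.34 and 1.37 in the WT libraries. The WT input was also high there, at 3.19 on the log2 scale of the table, while the 95th percentile of WT peaks was 1.85, and the part of input in this peak was not tested. The nearest LKO peak lay 2586 bp away. A WT peak 2694 bp upstream, stronger than 87.5% of WT peaks, had an LKO peak 27 bp beyond its edge, so that it counted as unshared without being far from LKO binding.

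**Figure D2:**
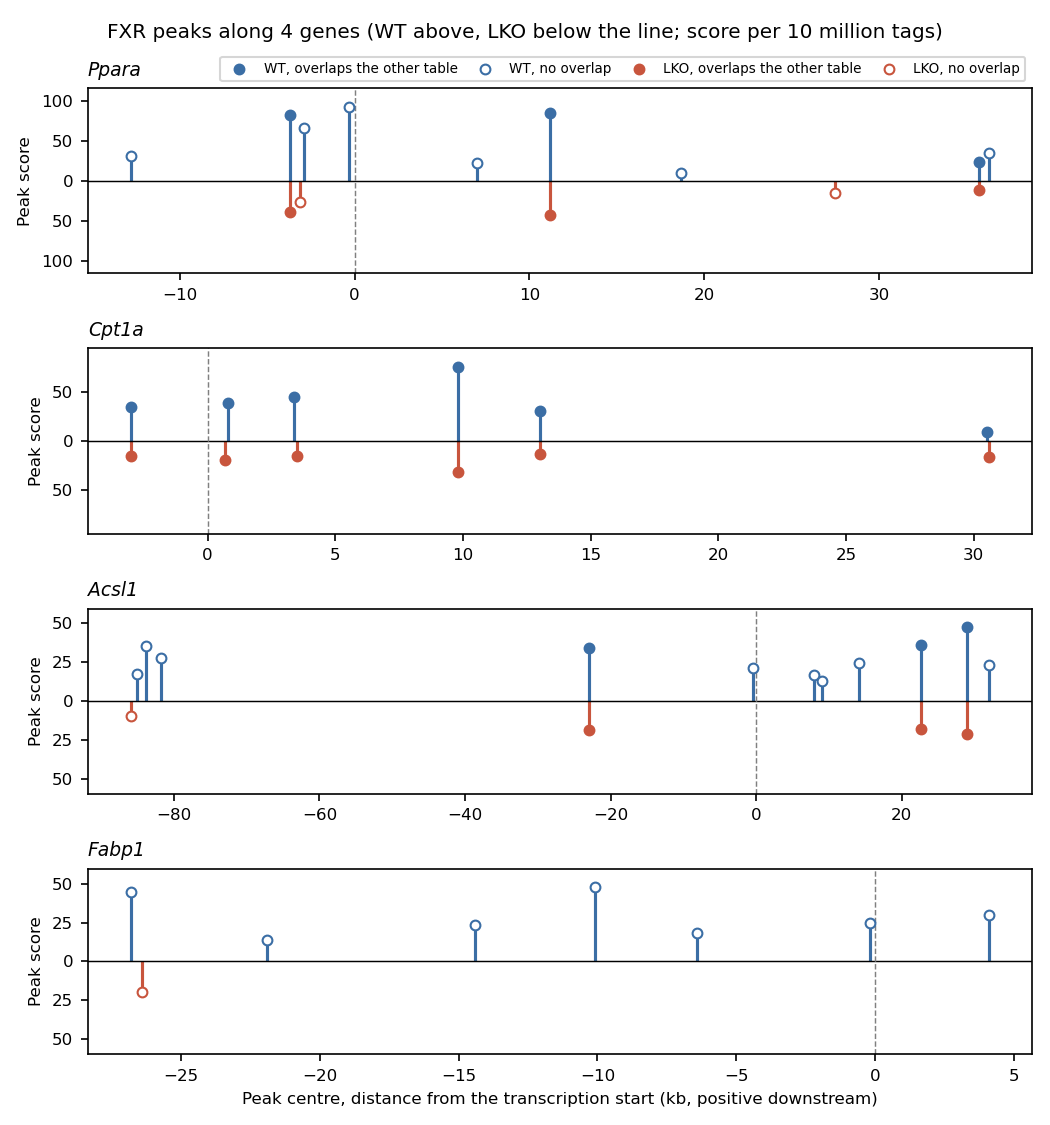
Position of each FXR peak along Ppara, Cpt1a, Acsl1 and Fabp1, in kb from the start of 1 RefSeq transcript per gene, with the authors' peak score (tags of the pooled libraries of a genotype, scaled to 10000000) as height, WT upwards and LKO downwards. Filled heads mark overlapping peaks; the 6 Cpt1a peaks are matched in LKO, and the 7 Fabp1 peaks of WT face a single LKO peak.

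The uptake and activation genes showed the most peaks without a partner. Acsl1, which joins long-chain fatty acids to coenzyme A, had 11 WT and 4 LKO peaks and 3 pairs. Its strongest pair, in an intron (chr8:46499898-46500108), stood at 0.42 and -0.18 in WT and at 0.13 and 0.17 in LKO. The LKO libraries lay inside the WT range. Fabp1, the fatty acid binding protein of liver, had 7 WT peaks from 26779 bp upstream of the TSS to 4052 bp downstream of it. The single LKO peak of Fabp1 lay 138 bp from the edge of the farthest upstream WT peak, and its input was above the 95th percentile of LKO peaks (2.97 against 2.49, log2).

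Cd36, a fatty acid uptake receptor, was the only member with LKO peaks and no WT peak. Its strongest peak, 95748 bp downstream of the TSS and therefore far from the gene start, stood at -0.67 and 0.44 in the LKO libraries, with an input of 2.96. The other two stood at -1.18 and -0.87 (900 bp downstream) and at -1.11 and -0.93 (8756 bp upstream). Both were weak, at the percentiles 10.5 and 10.9 of LKO peaks.

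The carnitine shuttle was the group in which every called peak was paired, 8 of 8 in each table. Cpt1a, the rate-limiting enzyme of mitochondrial fatty acid entry, held 6 of the pairs and Cpt2, its partner on the inner membrane, held 2. At the strongest Cpt1a peak, in an intron 9787 bp downstream of the TSS, the WT libraries stood at 1.05 and 0.71 and the LKO libraries at 0.95 and 0.45. These overlapped, with a difference of -0.18 beside a pooled SD of 0.30. The next intronic Cpt1a peak (chr19:3326633-3326843) did not overlap. It stood at 0.16 and 0.40 in WT and at -0.44 and -0.43 in LKO, a difference of -0.72 with a pooled SD of 0.12. The Cpt1a peak 3041 bp upstream was separated by a smaller step, at -0.24 and 0.34 in WT and at -0.32 and -0.26 in LKO. The weakest Cpt1a peak (chr19:3353710-3353920) went the other way, at -2.71 and -1.11 in WT and at -0.55 and -0.10 in LKO. Its difference of 1.58 was the highest of the 35 pairs, the pooled SD was 0.83, and the WT peak was stronger than only 5.27% of WT peaks. That WT peak held an estimated 9.8 and 6.4 tags in the 2 WT libraries. It overlapped the LKO peak only in part, with centres 30514 and 30621 bp downstream of the TSS. Among Cpt1a pairs whose libraries did not overlap, only this weak pair was higher in LKO. At the Cpt2 promoter the level was -0.23 and -0.24 in WT and 0.072 and -0.19 in LKO, with an LKO input of 2.96, above the 95th percentile.

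In mitochondrial beta-oxidation, 9 of 13 genes had a WT peak, 6 an LKO peak and 5 a pair. The strongest pair lay at the promoter of Decr1, the dienoyl-CoA reductase needed for unsaturated fatty acids (chr4:15945327-15945537). It stood at 0.82 and 1.48 in WT and at 1.46 and 1.08 in LKO, which overlapped. The first acyl-CoA dehydrogenases of the spiral were bound close to their starts in both genotypes. The Acadvl promoter peak stood at -0.58 and -0.64 in WT and at -0.44 and 0.065 in LKO, a difference of 0.42 with a pooled SD of 0.25. The Acadm peak, 358 bp into the gene, stood at 0.13 and -0.43 in WT and at 0.39 and 0.33 in LKO, a difference of 0.51 with a pooled SD of 0.28. Both LKO libraries lay above both WT libraries at these Acadvl and Acadm peaks, and at Acadl, 486 bp into the gene, the genotypes overlapped. Acadm also had 3 WT peaks without an LKO partner, at the percentiles 57.0, 78.2 and 70.6 of WT peaks. The paired peak was at 68.6. The last of the unpaired peaks, at the promoter, lay 345 bp from the LKO peak.

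Hadh, the short-chain hydroxyacyl-CoA dehydrogenase, held pairs of both directions. The peak 705 bp downstream of its TSS, over the DR1 site shown above, stood at -0.21 and -0.77 in WT and at -0.10 and 0.075 in LKO, a difference of 0.48 with a pooled SD of 0.30. The peak 11337 bp upstream stood at 0.005 and 0.60 in WT and at -0.48 and -0.98 in LKO. That difference of -1.03, with a pooled SD of 0.39, was the lowest of the 35. The WT and LKO peaks of this pair overlapped only in part, centred 11337 and 11207 bp upstream. Their levels were thus taken over partly different stretches. Hadha and Hadhb, the subunits of the trifunctional protein, and Acaa2, the thiolase of the last step, had WT peaks only. The Hadhb peak lay 80 bp from its TSS and at the start of the neighbouring Hadha as well, so it could be named for either gene. It stood at -0.82 and -0.81 in the WT libraries. The Hadha peak, in an intron, stood at -2.22 and -0.46, and the 2 intronic Acaa2 peaks at -0.51 and -0.96 and at -1.06 and -1.41. All 4 were weaker than a typical WT peak, with percentiles of 25.3 to 47.7.

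The peroxisomal genes were led by the promoter of Acaa1b, a peroxisomal thiolase. It stood at 1.64 and 1.37 in WT and at 1.58 and 1.96 in LKO and overlapped between genotypes. Input was above the 95th percentile in both tables (3.20 in WT and 2.51 in LKO, log2), in LKO only just (limit 2.49). An Acaa1b peak 1462 bp into the gene stood at -0.043 and -0.20 in WT and at 0.19 and 0.73 in LKO, a difference of 0.58 with a pooled SD of 0.28. Another Acaa1b peak, 7877 bp upstream, stood at 0.15 and 0.56 in WT and at -0.20 and -0.76 in LKO, a difference of -0.83 with a pooled SD of 0.35. Ehhadh, the bifunctional enzyme, held 1 pair 108 bp from its TSS at 0.22 and -0.19 in WT and at 0.15 and -0.17 in LKO. Eci2, an enoyl-CoA isomerase of unsaturated fatty acids, had 6 WT peaks, of which 1 was paired. Acaa1a, the paralog of Acaa1b, had 1 WT peak at -1.25 and -1.69 and no LKO peak.

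The omega-hydroxylases, encoded by the Cyp4a genes, formed the only group with WT peaks and no LKO peak. The 6 genes held 9 WT peaks. The nearest LKO peak lay between 399906 and 701676 bp away and was assigned to Faah. The peaks were weak as a group, with a median strength percentile of 22.4 among WT peaks. The Cyp4a12b promoter was the strongest, at -0.34 in WT replicate 1 and 0.88 in WT replicate 2, an estimated 50.3 and 25.6 tags. The Cyp4a12a promoter stood at -1.15 and 0.02, with 28.8 and 14.1 tags, and the Cyp4a12a exon peak at -0.67 and -0.90. Both promoters were relatively higher in the shallow replicate, and the part of depth in this was not tested. Cyp4a14, the weakest, stood at -2.50 and -1.53, and Cyp4a31 at -1.48 and -2.03. The Cyp4a10 peaks stood at -1.97 and -1.76 upstream and at -1.56 and -0.86 in an intron, and those of Cyp4a32 at -1.16 and -1.68 and at -1.10 and -2.00. Of all WT peaks, 13.9% in the weakest strength quartile and 33.0% in the next had an LKO partner, and 7 of the 9 Cyp4a peaks lay in these quartiles. The Cyp4a12a promoter was at the percentile 54.6, in the quartile where 60.7% of all WT peaks had a partner. The Cyp4a12b promoter was at 78.8, in the strongest quartile, where 90.3% had one.

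Among the thioesterases, which split acyl-CoA to the free acid and coenzyme A, Acot4 showed the clearest separation of the genotypes. Its intronic peak was stronger than 97.6% of WT peaks and 89.8% of LKO peaks. It stood at 2.07 and 2.20 in the WT libraries, 2.13 ± 0.091 (SD, n = 2), and at 1.31 and 1.43 in the LKO libraries, 1.37 ± 0.084 (SD, n = 2). The difference of -0.76 was several times the pooled SD of 0.087. A second Acot4 peak 5325 bp upstream (chr12:84032949-84033159) stood at -0.41 and -0.14 in WT and at -0.98 and -1.15 in LKO, a difference of -0.79 with a pooled SD of 0.16. The neighbouring Acot1 and Acot3 each held a weak pair in which the LKO libraries were the higher ones, by 0.40 at Acot1 (pooled SD 0.19) and 0.27 at Acot3 (pooled SD 0.089). These genes are close paralogs in 1 cluster, and a peak there may be named for a neighbour.

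Bdh1, which interconverts the ketone bodies, held 4 WT peaks and 3 pairs, all overlapping between genotypes. Its strongest, 22945 bp upstream, stood at -0.10 and 0.43 in WT and at -0.26 and -0.08 in LKO. The lipid droplet genes carried the strongest peaks of the whole set. The promoter of Plin5, a droplet coat protein of oxidative tissue (chr17:56117181-56117391), stood at 2.87 and 3.35 in WT and at 2.97 and 3.12 in LKO, above 99.7% of WT and 99.2% of LKO peaks. The LKO libraries lay within the WT range, with a difference of -0.064 and a pooled SD of 0.25. The promoter of Plin2, the main droplet coat protein of liver (chr4:86669960-86670170), stood at 2.31 and 2.71 in WT and at 2.67 and 3.05 in LKO and also overlapped. WT input at Plin2 was high (2.35 against a 95th percentile of 1.85), while LKO input was 0.42. Vnn1, a pantetheinase, had a WT peak 1511 bp upstream (-1.49 and -1.45) and an LKO peak 302 bp upstream (-0.42 and -0.50) that lay 1001 bp apart. Eci1, the mitochondrial counterpart of Eci2, likewise had 1 weak peak in each table, 1648 bp apart.

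**Figure D3:**
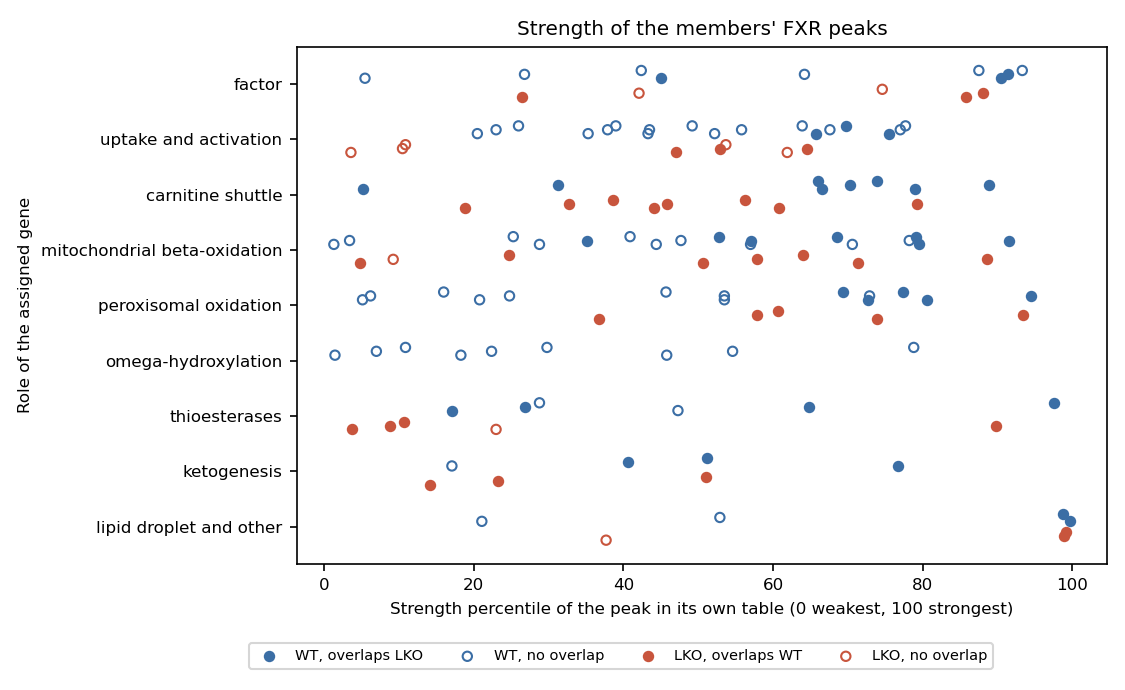
Strength of each FXR peak of the 39 genes as its percentile in its own table (x axis), by the role of the gene (y axis), with small vertical offsets only to separate points. Filled points overlap a peak of the other genotype and open points do not; the lipid droplet peaks of Plin2 and Plin5 sit above the 98th percentile in both genotypes and the omega-hydroxylase peaks are WT only with a median of 22.4.

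Over the 35 pairs, both LKO libraries lay above both WT libraries at 8 (22.9%, against 29.8% of all 9918 shared pairs) and below at 6 (17.1%, against 25.2%). At the other 21 the genotypes overlapped. At 16 of the 35 pairs, and at 3653 of all 9918, the difference was smaller than the pooled SD. The median difference was 0.03 for the members and 0.03 for all pairs, with a range of -1.03 to 1.58 among members. Both ends of this range came from pairs in which the LKO peak covered less than 50% of the WT peak. Directions depend on the scale, since these levels are relative to shared peaks. On the scale of library totals the median of all pairs was -1.12 and that of the members -1.11. On it the LKO libraries were the lower ones at 33 of the 35 pairs and at 85.3% of all pairs, and the higher ones at 0 of 35. On that scale no pair described above as higher in LKO, Acot1 and Acot3 included, kept both LKO libraries above both WT libraries. Those at Acadvl, Acadm, Hadh and Acaa1b became lower (-0.72, -0.64, -0.67 and -0.57). The weakest Cpt1a pair kept a mean difference of 0.44.

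**Figure D4:**
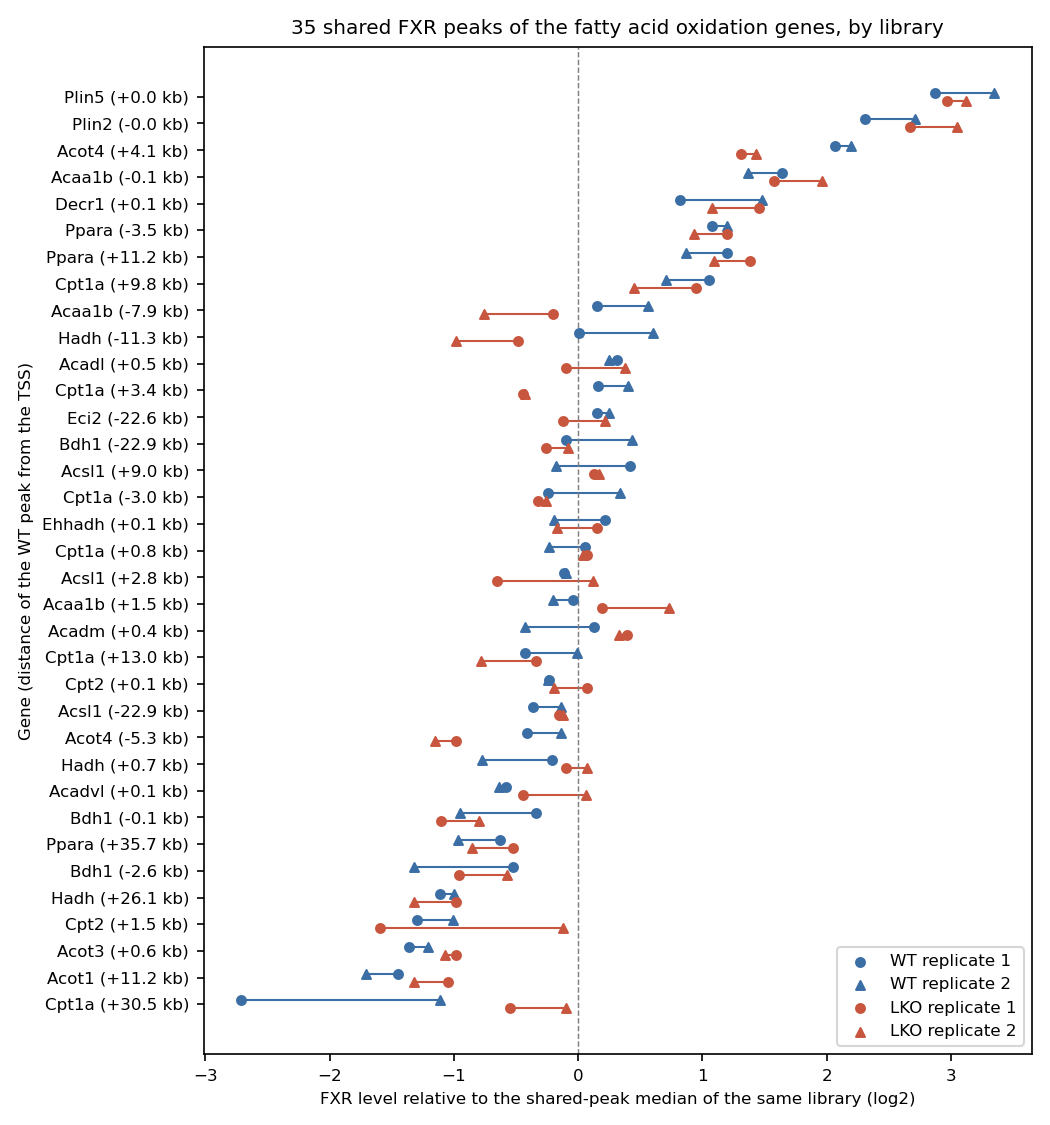
FXR level at the 35 shared peaks in each of the 4 ChIP libraries (log2, less the library's median over all shared peaks, dashed line at 0), sorted by the WT mean, with lines joining the 2 libraries of a genotype. At the Acot4 peak 4.1 kb downstream the LKO libraries (1.31 and 1.43) lie below the WT libraries (2.07 and 2.20), while those of Plin5 and Plin2 overlap; on the scale of library totals the LKO libraries would be the lower ones at 33 of the 35.

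Peaks without a partner were weaker than paired ones. The 54 unshared WT peaks had a median percentile of 41.6 against 70.3 for the 35 shared, and 6 of them lay within 500 bp of an LKO peak. The 10 unshared LKO peaks had a median of 30.3 against 52.9 for the shared, and 2 lay within 500 bp of a WT peak. Over all peaks, the medians of unshared and shared peaks were 29.8 and 72.2 in WT and 24.0 and 57.7 in LKO. In quartiles of increasing strength, 10.5%, 20.8%, 52.0% and 71.4% of the members' WT peaks had an LKO partner, against 13.9%, 33.0%, 60.7% and 90.3% of all WT peaks. In the strongest quartile this was 15 of 21 peaks, with an interval of 50 to 86.2. The 6 without a partner belonged to Ppara (2), Fabp1 (2), Acadm and Cyp4a12b. Among them a Ppara peak lay only 27 bp and a Fabp1 peak 138 bp from an LKO peak. The other Ppara peak, at the promoter, had the high WT input given above. When strength was taken from WT replicate 1 alone, 15 of 19 peaks (78.9%, interval 56.7 to 91.5) had a partner, against 90.5% of all.

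**Figure D5:**
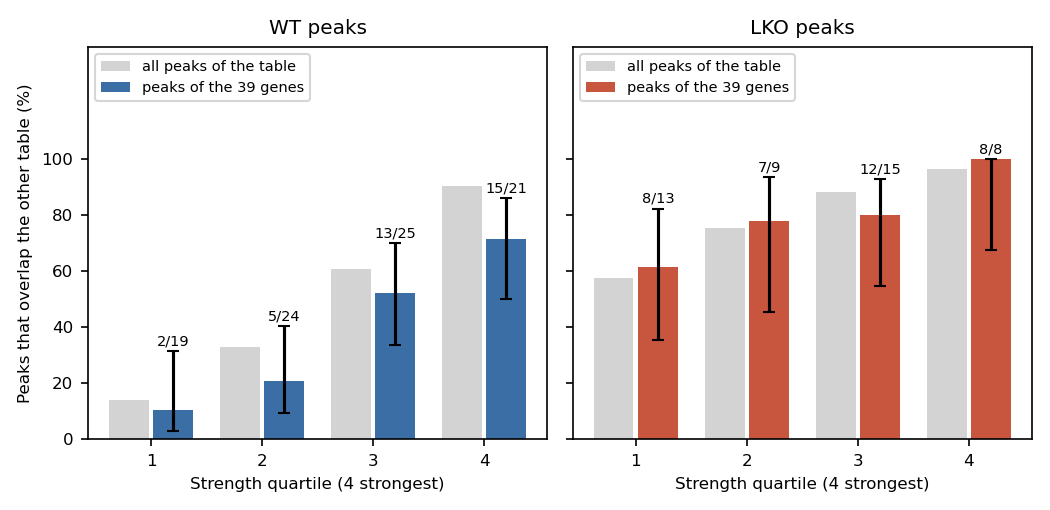
Percent of peaks that overlap a peak of the other genotype (y axis) by quartile of strength within the own table (x axis, 4 strongest), for all peaks (grey) and for the peaks of the 39 genes (coloured, with 95% Wilson intervals and counts). The members follow the order of all peaks, and their strongest WT quartile reads 71.4% (15 of 21) beside 90.3%.

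The motifs were searched on both strands. An IR1 was found in 4 of 89 WT peaks of the members (4.49%, interval 1.76 to 11), against 11.8% of all WT peaks, and in 5 of 45 LKO peaks (11.1%, interval 4.84 to 23.5), against 16.2%. Among peaks above the median strength the WT shares were 6.52% for the members (3 of 46, interval 2.24 to 17.5) and 15.4% for all. All 4 WT matches were under shared peaks, at Bdh1, Cpt1a and Acaa1b. None of the 54 unshared WT peaks held one (Wilson upper limit 6.64%; 3 counts of 54 would be 5.56%), while 7.16% of all unshared WT peaks did. A DR1 was found in 14 WT peaks (15.7%, interval 9.61 to 24.7, against 12.8%) and in 6 LKO peaks (13.3%, interval 6.26 to 26.2, against 11.9%). These shares cannot be told from those of all peaks at this number. The BCL6 and STAT core, TTC and GAA with 3 bases between, was found in 8 WT peaks (8.99%, interval 4.63 to 16.7, against 6.56%) and in 3 LKO peaks (6.67%, against 6.39%). The 2 motif shapes share their half-site, and 1 WT peak, at Bdh1, held both.

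The best matches did not lie under the strongest peaks. The exact DR1 near Acaa1b was in a WT-only peak stronger than 16.0% of WT peaks. The Vnn1 IR1, with 1 mismatch, was in an LKO-only promoter peak. Plin5, with the strongest peak, had a DR1 with 2 mismatches 42 bp from the WT peak centre, and Plin2, Acot4 and Decr1 had no match to either motif within the window.

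The wider list of 93 genes had peaks at 72 genes, with WT peaks at 70, LKO peaks at 64 and pairs at 61. Of its 121 pairs, 30 were higher and 39 lower in LKO (24.8% and 32.2%, with the percentages of all pairs given above), and the median difference was -0.13. On the scale of library totals these would shift downwards together with all pairs. Its strongest pair was at Phyh, the phytanoyl-CoA hydroxylase of alpha-oxidation (chr2:4902277-4902487), at 3.14 and 3.76 in WT and at 3.15 and 3.45 in LKO, above Plin5. A second Phyh pair stood at 1.35 and 2.33 in WT and at 1.21 and 0.82 in LKO and did not overlap. Hsdl2, a dehydrogenase-like protein of peroxisomes, at 1.83 and 2.15 in WT and at 1.44 and 2.21 in LKO, and Acad12, an acyl-CoA dehydrogenase, at 1.80 and 1.96 in WT and at 1.53 and 1.83 in LKO, overlapped. Mlycd, the malonyl-CoA decarboxylase that relieves the brake on Cpt1a, stood at 1.60 and 1.46 in WT and at 1.12 and 0.94 in LKO, a difference of -0.50 with a pooled SD of 0.11. An LKO partner was found for 55.3% of the WT peaks in the wider list (interval 48.6 to 61.7), 51.3% for fatty acid and triglyceride synthesis genes (interval 40.4 to 62.1) and 57.1% for bile acid genes (interval 44.1 to 69.2), each above the 39.3% of the 39 genes. Among genes with a peak, those with an overlapping pair made up 84.7% of the wider list (interval 74.7 to 91.2), 76.0% of the synthesis genes (interval 56.6 to 88.5) and 87.5% of the bile acid genes (interval 64.0 to 96.5), against 56.2% of the 39 genes (interval 39.3 to 71.8). Genes with WT peaks only made up 31.2% of the members with a peak (interval 18 to 48.6), 28.8% of all genes in the tables, and 8 of 72, 3 of 25 and 2 of 16 genes with a peak in those lists. Of the 10 WT-only members, 6 were the neighbouring Cyp4a genes. These differences were not tested.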

How the data were processed

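FXR ChIP-seq was analysed in 6 samples, 2 ChIP libraries and 1 input per genotype (WT, Bcl6fl/fl; LKO, Bcl6LKO), grouped by their titles. The authors used antibody E4B8P on liver crosslinked in 2 steps, aligned single-end reads to mm10 with Bowtie and kept unique alignments. Bowtie 1.2 and HOMER 4.10 are named in the submitters' processing notes. Per the file headers, HOMER called peaks on both ChIP libraries of a genotype at once, over input, and these were filtered with DESeq2 (version not given in the sources used here), scaled to library totals. The deposited values per library were taken as regularized log2 tags fitted over the 3 libraries of a table, since they are not whole numbers and can be negative although the headers call them tags. This transform pulls low values together, which makes the spread between libraries of 1 table too small. The peak score was deposited as a signal, pooled tags scaled to 10000000. Fold changes and p-values of the authors' own comparison of ChIP with input were not used.

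WT and LKO peaks were paired when they overlapped by at least 1 bp. Levels were centred on the shared-peak median of each library, and estimated tags were recovered from log2 values and library totals. Strength was the mean log2 ChIP value and was ranked within a table. Shares have 95% Wilson intervals, which cover counting over peaks only. Motifs were scored in GRCm38.p6, which has mm10 coordinates (93.4% of WT and 93.3% of LKO peaks had the same TSS distance to within 2 bp). No test was run between genotypes. The members, their roles and the comparison lists were chosen with earlier results of these data known. Full values were given for the strongest pair by WT mean of each role, the 5 largest differences in each direction among pairs whose libraries did not overlap, members with peaks in 1 table only, and the 5 strongest pairs of the wider list; other pairs named were chosen after their values were seen. Alternatives changed the strength, distance and input limits, the number of peaks, the overlap, the assignment of peaks to genes, the scale, the motif limits and the libraries used. Code was run in Python 3.11.15 with numpy 2.4.6, pandas 2.3.3 and pysam 0.24.0 and was tested on simulated peaks.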

Additional observations from a re-analysis of the deposited data

How the results depend on the processing

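Of 48 recomputed counts, shares and medians, 36 stayed within 1.5 times the count, within the interval of the share or within the 0.059 spread of the library medians. With only peaks at or above the median strength, 19 of the genes had a WT peak. With the same number of peaks in both tables, 50% of the members' WT peaks had an LKO partner. Neither value was computed over all genes or all peaks, so neither can be read against the tables at large. The median difference over the shared pairs was -0.29 on the deposited scale, -1.11 on the scale of library totals, -0.033 when centred on the mean, and 0.11 for pairs at or above the median strength in both tables. Leaving out 1 library at a time gave medians from -0.037 (without WT replicate 2) to 0.066. Centred within 1 kb of the TSS, 35.6% of the members' LKO peaks counted as near promoters, against 16.6% of all. With at most 1 mismatch, the members' IR1 share was 0% in WT and 2.22% in LKO, against 2.46% and 3.55% of all peaks. Their DR1 share was 3.37% and 4.44%, against 2.67% and 2.21%. For 17 single pairs, 5 alternatives each, the 4 reversals were all on the scale of library totals: Acadvl -0.72, Acadm -0.64, Hadh -0.67 and Acaa1b -0.57. The scale itself sets these reversals, since it moves every pair down; for the other changes the cause was not tested. No paired analysis was possible because no label ties a replicate number in WT to the same number in LKO, and the results came from no test. The low depth of WT replicate 2, about 10 tags at a median peak, limits how well the WT spread can be known.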
